A study of Mus musculus with 25 samples.

Results

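HBEGF (heparin-binding EGF-like growth factor) was withdrawn from cultured mouse astrocytes, and their RNA was compared with that of astrocytes kept in HBEGF. The comparison was chosen by the labels alone: the 2 libraries named as HBEGF withdrawal were set against the 2 named as HBEGF, 4 of the series' 25 libraries, and all genes were examined. All 4 came from C57BL/6J cortex, from cells labelled astrocyte that were isolated by immunopanning with an antibody to HepaCAM, a cell adhesion protein of the astrocyte surface. HBEGF was given to, or taken from, the cultures on the day of preparation. The closest other experiment in the series used the same kind of cells with an EGFR inhibitor or DMSO, added on day 2 in vitro, with 3 libraries each, and shares no library with this one. The day of harvest, the age and pooling of the animals, the dose of HBEGF and whether the inhibitor cultures held HBEGF are not stated in the labels. Nor is the origin of the replicates, so the p-values speak only to the spread among these samples, which could be technical.

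HBEGF is a ligand of the ErbB family. It is made as a membrane protein, released by proteases, and binds EGFR and ERBB4, receptor tyrosine kinases that activate the RAS-ERK kinase cascade and PI3K signalling. ERK activity induces transcription factors such as EGR1 and MYC, and also induces its own inhibitors, the Sprouty proteins and the phosphatase DUSP6, so that their transcripts serve as readouts of the pathway. In astrocytes, EGFR ligands are known as mitogens and are used in serum-free culture media for these cells.

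Values are RPKM (counted reads scaled to library size and to length, here the whole span of the gene), given as HBEGF replicates 1 and 2 and then withdrawal replicates 1 and 2. Log2 changes are withdrawal minus HBEGF on the log2(RPKM + 1) scale, ± SE, a scale that makes changes of low genes look smaller. They come with limma p-values adjusted by Benjamini and Hochberg over 13850 genes, and a gene is said to have risen or fallen where this was below 0.05. Of these genes, 1390 rose (10.0%) and 3121 fell (22.5%) after withdrawal, and 455 and 742 of them changed by at least 1 log2 unit. Without HBEGF replicate 2 the number that rose was 786. Ribosomal RNA of the mitochondrion took 29.7 and 27.9% of the counted reads after withdrawal against 17.2 and 18.2% with HBEGF, so that less of the sequencing went to other genes. Median-of-ratios scaling, which offsets this shift in part, gave 1788 genes that rose (12.9%) and 2500 that fell (18.1%). With it 41.7% of the called genes rose in place of 30.8%. Scaling without mitochondrial genes gave 1976 that rose and 2171 that fell. The median log2 change of the 2320 genes averaging 5 RPKM or more was -0.39 as deposited. It was -0.26 with median-of-ratios scaling and -0.20 with scaling without mitochondrial genes. The called genes named below kept their direction with median-of-ratios scaling. List medians are given as deposited, beside the median of all tested genes, -0.10. Of the 1390 genes that rose, 1382 had both withdrawal libraries above both HBEGF libraries, and of the 3121 that fell, 3117 had both below, while 7879 of all 13850 genes (56.9%) had groups that did not overlap. The fit took its estimate of spread from all 25 libraries. With the 4 libraries alone and 2 residual degrees of freedom, limma called 0 genes in either direction, while 1202 higher and 2724 lower had an unadjusted p below 0.05.

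The transcripts of the ligand and of its receptor Egfr were lower after withdrawal. The Hbegf transcript measured 19.2 and 7.33 RPKM with HBEGF and 2.87 and 1.57 RPKM without it (log2 change -2.04 ± 0.58, adjusted p = 0.011). Both withdrawal libraries lay below both HBEGF libraries, but the HBEGF libraries differed from each other, and the adjusted p was 0.143 without HBEGF replicate 1 and 0.0888 without withdrawal replicate 2. Egfr (chr11:16752203-16918158, GRCm38), the receptor, measured 3.60 and 5.06 RPKM with HBEGF and 2.01 and 2.06 RPKM without it. Its log2 change was -0.80 ± 0.19 (adjusted p = 0.00397, and 0.0706 without HBEGF replicate 2). Erbb2, the co-receptor that binds no ligand, measured 1.83 and 1.01 RPKM against 1.5 and 1.94 RPKM, and its groups overlapped. Genes too low for the RPKM filter were read from reads recovered from the RPKM values, tested with voom and limma on 15239 genes, of which 2722 rose (17.9%) and 3905 fell (25.6%). Erbb4, the other receptor of HBEGF, had 445 and 344 reads with HBEGF and 328 and 311 after withdrawal (log2 change -0.04 ± 0.29, adjusted p = 0.919). Erbb3, a neuregulin receptor, had 2 and 1 reads with HBEGF and 123 and 31 reads after withdrawal (adjusted p = 0.000646). Among these 4 libraries Erbb3 had enough reads for the test only after withdrawal, and the withdrawal replicates were far apart. A gene that enters only through the group where it is high has to differ, so no rise of Erbb3 is concluded from this p-value. The other ligands did not pass: Tgfa (transforming growth factor alpha) had 218 and 201 reads against 160 and 107 (adjusted p = 0.286), and Nrg1 (neuregulin 1) had 630 and 228 against 546 and 417 (adjusted p = 0.0889). Areg and Ereg (amphiregulin and epiregulin) had at most 2 reads in any of the 4 libraries.

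Genes for ligand release and receptor inhibition mostly fell. Of 10, 6 were tested and 5 fell (4 with median-of-ratios scaling, and 3 without withdrawal replicate 1), among them the ligand-releasing proteases Adam10, from 0.806 and 0.962 RPKM to 0.503 and 0.402 RPKM, and Adam17, from 1.75 and 2.06 RPKM to 1.19 and 1.36 RPKM. The call of Adam17 (adjusted p = 0.0133) was lost without HBEGF replicate 2 (0.13) or withdrawal replicate 1 (0.0916) and with median-of-ratios scaling (0.0519). On recovered reads 9 were fitted, 5 fell and 1 rose, Lrig2, a relative of Lrig1, at 317 and 266 reads against 347 and 284 (adjusted p = 0.0386). The call of Lrig2 was lost without HBEGF replicate 1, HBEGF replicate 2 or withdrawal replicate 1. Lrig1, which promotes degradation of ErbB receptors, measured 2.19 and 2.30 RPKM with HBEGF and 0.766 and 0.559 RPKM without it (log2 change -0.97 ± 0.10, adjusted p = 2.11e-06). Cbl, a ubiquitin ligase for activated receptors, fell from 2.85 and 3.27 RPKM to 1.81 and 1.77 RPKM. In Lrig1 and Cbl the 2 groups were well apart and the replicates close.

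Inhibitors of the ERK cascade fell, some of them by several fold. Of 7 Sprouty and Spred genes, all tested, 6 fell, with a median log2 change of -0.81 (-0.74 with median-of-ratios scaling). Spry1 (chr3:37639947-37644598, GRCm38) measured 8.84 and 10.9 RPKM with HBEGF and 0.427 and 0.855 RPKM after withdrawal, a log2 change of -2.73 ± 0.32 (adjusted p = 6.92e-06). Spry4 measured 11.9 and 12.6 RPKM against 0.958 and 1.80 RPKM. The withdrawal libraries of both genes were lower than either HBEGF library by several fold. Spry2, the most abundant of the family here, measured 37.9 and 24.8 RPKM against 13.1 and 13.6 RPKM (log2 change -1.14 ± 0.34, adjusted p = 0.0153). Its call was lost without HBEGF replicate 1 (adjusted p = 0.147) and without either withdrawal library (0.0634 and 0.0587), and also under quantile normalization (0.0889). Spred3 fell from 2.26 and 2.27 RPKM to 1 and 0.738 RPKM. Spry3 did not pass. The span of Spry1 overlaps the annotated gene Gm42922 and that of Spry4 overlaps Gm27369, and reads of such pairs cannot be assigned here since whether strand was used in counting is not stated in the labels.

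The dual specificity phosphatases, which remove phosphate from MAP kinases, split in direction. Dusp6 (chr10:99263231-99267489, GRCm38), the phosphatase of cytoplasmic ERK, measured 42.3 and 33.5 RPKM with HBEGF and 2.91 and 4.29 RPKM after withdrawal (log2 change -3.09 ± 0.38, adjusted p = 9.3e-06). Dusp1, a nuclear phosphatase that also acts on JNK and p38, went the other way, from 5.49 and 4.25 RPKM to 14.9 and 14.2 RPKM (log2 change 1.42 ± 0.20, adjusted p = 4.23e-05). The remaining 4 of the 6 tested, among them Dusp4 and Dusp7, did not pass.

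**Figure D1:**
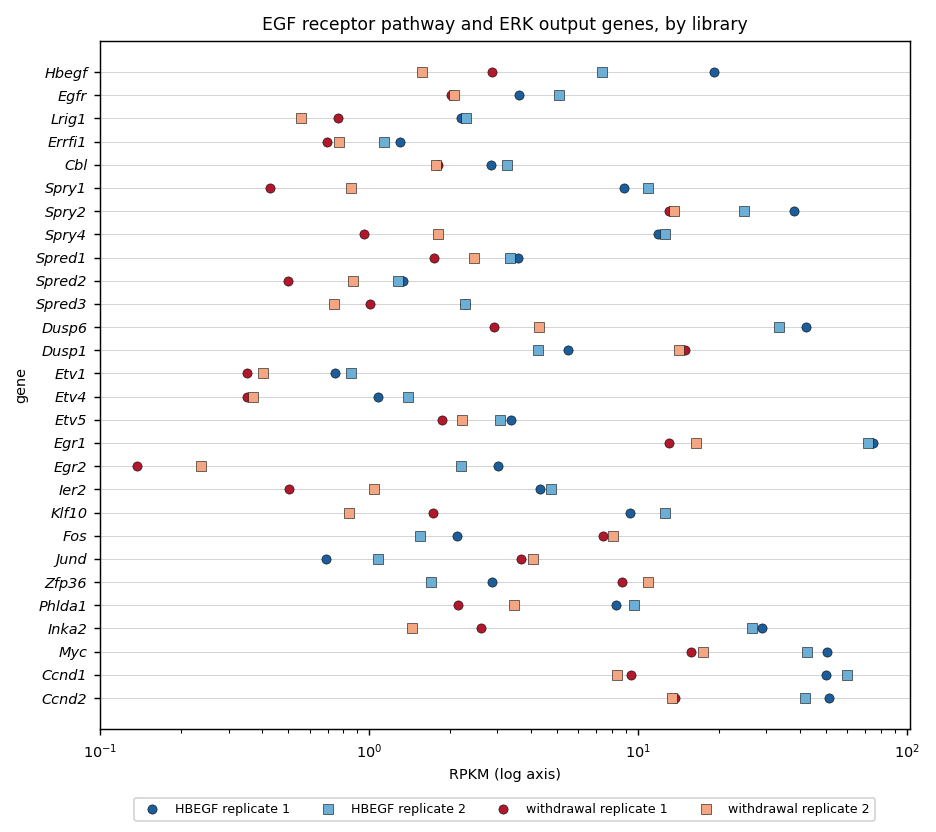
RPKM in each of the 4 libraries (log axis) for 28 genes of ErbB and ERK signalling; each symbol is 1 library, HBEGF or withdrawal. Spry1, Spry4, Dusp6, Egr1 and Klf10 lie lower in both withdrawal libraries than in both HBEGF libraries, while Dusp1, Fos, Zfp36 and Jund lie higher.

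Transcription factors and other outputs of ERK signalling mostly fell. Of 20 such genes, 16 were tested, 10 fell and 1 rose, with a median log2 change of -0.43. Myc, a growth-promoting transcription factor, measured 50.5 and 42.5 RPKM with HBEGF and 15.7 and 17.5 RPKM after withdrawal (log2 change -1.43 ± 0.20, adjusted p = 2.73e-05). Etv4, an ETS factor induced by receptor tyrosine kinases, fell from 1.08 and 1.39 RPKM to 0.352 and 0.369 RPKM. Phlda1 fell from 8.28 and 9.64 RPKM to 2.14 and 3.45 RPKM. Each of these had non-overlapping groups. Emp1, a membrane protein, was the 1 that rose, from 0.467 and 0.809 RPKM to 1.87 and 1.51 RPKM (limma adjusted p = 0.00191). Among these 4 libraries Emp1 reached the 1 RPKM of the filter only after withdrawal. A gene that enters only through the group where it is high has to differ, so no rise of Emp1 is concluded from this p-value.

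The immediate early genes, which are transcribed within minutes of a stimulus without new protein synthesis, did not move as a block. Of 24, 18 were tested, 6 fell and 5 rose, with a median log2 change of -0.11. On recovered reads 21 were fitted, 10 rose and 5 fell, and the median turned to 0.56. Fosb, an AP-1 subunit under the filter, had 10 and 2 reads with HBEGF and 49 and 16 after withdrawal (adjusted p = 0.00382). Among the libraries compared, Fosb reached the level of the read filter only after withdrawal, so its p-value has the same limit as that of Erbb3. Egr1 measured 74.7 and 71.5 RPKM with HBEGF and 13.1 and 16.4 RPKM after withdrawal (log2 change -2.24 ± 0.32, adjusted p = 3.56e-05). Egr2 fell from 3.02 and 2.19 RPKM to 0.137 and 0.237 RPKM, and Klf10, a zinc finger factor, from 9.32 and 12.6 RPKM to 1.72 and 0.838 RPKM. In all of these the withdrawal libraries were the low ones, without overlap. Fos, the AP-1 subunit that is itself a classical ERK-induced gene, was instead higher, with 2.13 and 1.55 RPKM with HBEGF and 7.41 and 8.11 RPKM after withdrawal (log2 change 1.63 ± 0.19, adjusted p = 5.32e-06). Zfp36, which destabilises inflammatory transcripts, rose from 2.85 and 1.70 RPKM to 8.73 and 10.9 RPKM, and Jund, another AP-1 subunit, from 0.694 and 1.08 RPKM to 3.67 and 4.05 RPKM. Among the MYC family, Myc was high with HBEGF and Mycn was high without it, at 1.85 and 1.29 RPKM against 8.51 and 8.77 RPKM (log2 change 1.91 ± 0.23, adjusted p = 7.75e-06).

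The cyclins that drive entry into the cell cycle were among the abundant transcripts that fell. Of 15 genes of the G1 phase, 13 were tested, 12 fell and 1 rose, with a median log2 change of -0.73 (10 fell with median-of-ratios scaling, and 7 without withdrawal replicate 2). Ccnd1, cyclin D1, measured 50.2 and 59.8 RPKM with HBEGF and 9.44 and 8.35 RPKM after withdrawal (log2 change -2.50 ± 0.33, adjusted p = 1.88e-05). Ccnd2, cyclin D2, measured 51.4 and 41.8 RPKM against 13.8 and 13.4 RPKM (log2 change -1.70 ± 0.28, adjusted p = 0.000138). Their kinase partner Cdk4 fell less, from 49.0 and 41.5 RPKM to 28.0 and 26.1 RPKM. The groups did not overlap for any of these, though the spans of Ccnd1, Ccnd2 and Cdk4 overlap other annotated genes. The inhibitors of these kinases moved in both directions. Of 14, 12 were tested, 4 rose and 3 fell, with 3 and 1 without HBEGF replicate 2, 2 and 2 without withdrawal replicate 1 and 4 and 2 without withdrawal replicate 2. Cdkn1b (p27) rose from 11 and 12 RPKM to 16.1 and 23.6 RPKM, Cdkn2b (p15) fell from 2.58 and 3.38 RPKM to 0.774 and 0.335 RPKM, and Cdkn1a (p21) was at 21.4 and 12.1 RPKM with HBEGF and 24.5 and 12.9 RPKM without it (adjusted p = 0.84).

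Genes of DNA replication fell nearly as a whole. Of 41, 35 were tested and 34 fell (33 with median-of-ratios scaling), with a median log2 change of -1.04, and of the 40 that could be fitted on recovered reads 39 fell. Leaving out any 1 of the 4 libraries gave 31 to 34 that fell. The subunits of the MCM helicase, which unwinds DNA at replication forks, moved together: Mcm4 measured 12.4 and 16.1 RPKM with HBEGF and 3.57 and 2.41 RPKM after withdrawal (log2 change -1.94 ± 0.23, adjusted p = 6.92e-06). Mcm5 measured 5.91 and 6.37 RPKM against 1.32 and 1.26 RPKM, and Mcm6 measured 6.13 and 7.07 RPKM against 1.91 and 1.87 RPKM. Pcna, the sliding clamp of the polymerases, fell from 21.9 and 22.9 RPKM to 7.00 and 6.32 RPKM. Replicates lay close in both groups. Of 20 genes of nucleotide and one-carbon synthesis, all tested, 19 fell, with a median log2 change of -1.05. Rrm2, the regulated subunit of ribonucleotide reductase, measured 24.7 and 42.8 RPKM against 4.66 and 3.77 RPKM (log2 change -2.69 ± 0.40, adjusted p = 6.47e-05), and Paics, a purine synthesis enzyme, 33.0 and 35.8 RPKM against 16.2 and 15.3 RPKM (log2 change -1.08 ± 0.11, adjusted p = 2.46e-06).

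Promoter sequences were available from RefSeq (GRCm38.p6) as 250 bases before to 50 after each start. The E2F element, searched as TTTCCCGC or TTTGGCGC on both strands, is the site bound by the factors that the cyclin D kinases release. It stood in 10 of the 30 DNA replication genes that fell and had a promoter (33.3%), against 1.80% of 27025 genes and 3.95% of 6007 tested protein-coding genes. Members with it included Mcm3, Mcm5, Mcm6, Mcm7 and Cdc6. Windows upstream of the start are shown 5′ to 3′ on the gene's strand, with the match in capitals, for the pair of helicase subunits named above. They lie at chr8:75109324-75109403 (+ strand, Mcm5) and chr1:128359772-128359851 (- strand, Mcm6).
Mcm5: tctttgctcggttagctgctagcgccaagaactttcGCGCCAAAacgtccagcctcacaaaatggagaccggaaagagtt
Mcm6: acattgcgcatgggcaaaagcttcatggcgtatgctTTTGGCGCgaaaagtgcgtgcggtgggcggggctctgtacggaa
The Mcm5 match reads on the opposite strand, as GCGCCAAA, and begins 149 bases before the start, and the Mcm6 match begins 110 bases before it. A further Mcm6 match, outside the window, begins at position -47 from the start. A match is a run of letters and not a measured binding site. In the promoters of the 31 genes of these lists that held any of the 5 motifs searched, no matches of different motifs shared bases (0 pairs among 52 matches).

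Genes of mitosis also fell, but their size rested on 1 library. Of 50, 48 were tested and 32 fell (23 with median-of-ratios scaling), with a median log2 change of -1.11. Their summed level was 121 and 418 RPKM in the HBEGF libraries and 63.6 and 58.0 RPKM in the withdrawal libraries, so HBEGF replicate 2 stood far above replicate 1. Without HBEGF replicate 1 all 48 tested members fell (median -1.76), and without HBEGF replicate 2 only Smc2 did (median -0.43). Without withdrawal replicate 1 or 2 the count was 16 and 12. Mki67, the proliferation antigen, measured 12 and 59.6 RPKM with HBEGF and 5.92 and 4.77 RPKM after withdrawal (log2 change -2.15 ± 0.69, adjusted p = 0.0227). Its adjusted p was 0.354 without HBEGF replicate 2, 0.0602 and 0.103 without withdrawal replicates 1 and 2, and 0.0524 under quantile normalization. Top2a, a topoisomerase of S phase and mitosis, measured 9.13 and 31.9 RPKM against 3.31 and 3.70 RPKM (adjusted p = 0.00821, and 0.174 without HBEGF replicate 2). Cdk1, the mitotic kinase, measured 3.47 and 8.96 RPKM against 0.834 and 0.838 RPKM (log2 change -1.86 ± 0.41, adjusted p = 0.002, and 0.0533 without HBEGF replicate 2). Smc2, a condensin subunit, measured 2.79 and 6.00 RPKM against 1.16 and 0.924 RPKM (log2 change -1.34 ± 0.28, adjusted p = 0.0014). Both withdrawal libraries were below both HBEGF libraries in each of these 4 genes. Cenpa, the centromeric histone, did not pass: it measured 1.48 and 12 RPKM with HBEGF and 2.45 and 1.63 RPKM without it, with overlapping groups. In bulk samples, fewer cycling cells and less of these transcripts per cell cannot be told apart.

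**Figure D2:**
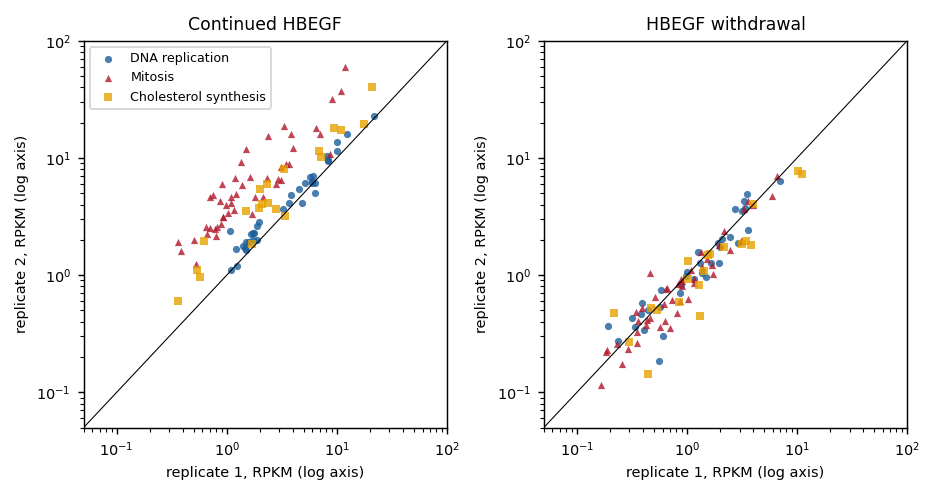
RPKM of replicate 1 against replicate 2 (log axes) in the HBEGF group and in the withdrawal group; each point is a gene of DNA replication, mitosis or cholesterol synthesis, and the line marks equal values. With HBEGF, mitosis genes lie off the line toward replicate 2 (summed 121 and 418 RPKM), while DNA replication genes lie nearer to it (summed 167 and 194 RPKM).

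The DNA replication genes did not share that split between the HBEGF libraries, with summed levels of 167 and 194 RPKM against 57.8 and 56.3 RPKM after withdrawal. Of the 32 mitosis genes that fell, 26 had a promoter in RefSeq and 20 of these (76.9%) held TTTGAA, the CHR element of cell cycle genes, on either strand. The same 6 letters stood in 20.2% of 27025 genes and 13.6% of the 6007 tested protein-coding genes. Windows upstream of the start are shown for the 4 members described above, in the gene's direction and with the match in capitals. They lie at chr7:135716454-135716531 (- strand, Mki67), chr10:69352942-69353019 (- strand, Cdk1), chr11:99024327-99024404 (- strand, Top2a) and chr4:52439040-52439117 (+ strand, Smc2).
Mki67: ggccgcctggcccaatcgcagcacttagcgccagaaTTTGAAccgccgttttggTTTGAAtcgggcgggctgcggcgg
Cdk1: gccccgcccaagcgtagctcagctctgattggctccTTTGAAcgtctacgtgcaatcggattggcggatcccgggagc
Top2a: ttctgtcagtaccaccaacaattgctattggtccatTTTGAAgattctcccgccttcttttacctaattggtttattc
Smc2: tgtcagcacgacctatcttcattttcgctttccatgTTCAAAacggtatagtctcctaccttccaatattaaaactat
The Mki67 window holds 2 matches, and the Smc2 match reads on the opposite strand, as TTCAAA. Further matches outside these windows begin at positions -15 (Cdk1), -23 (Top2a) and 26 (Smc2) from the start.

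Genes for making ribosomes fell together. Of 24 ribosome biogenesis genes, which process ribosomal RNA in the nucleolus, 22 were tested and 22 fell, with a median log2 change of -1.18, and on recovered reads 24 of 24 fell. Npm1, nucleophosmin, measured 32.7 and 29.6 RPKM with HBEGF and 7.67 and 8.23 RPKM after withdrawal (log2 change -1.84 ± 0.14, adjusted p = 1.34e-07). Ncl, nucleolin, fell from 141 and 130 RPKM to 43.7 and 38.5 RPKM, and Dkc1, a pseudouridine synthase, from 12.7 and 12.9 RPKM to 3.47 and 3.64 RPKM. The replicates of these genes were close and the groups far apart. Of 50 ribosomal protein genes, 46 were tested, 28 fell and 1 rose (24 fell with median-of-ratios scaling, and 14 without HBEGF replicate 1), with a median log2 change of -0.68. Rpl4 fell from 194 and 190 RPKM to 104 and 97.3 RPKM. The exception was Rpl15, at 5.47 and 5.14 RPKM with HBEGF and 13.6 and 19.9 RPKM after withdrawal (log2 change 1.47 ± 0.27, adjusted p = 0.000391), a gene whose span overlaps Nkiras1. These genes have many near-identical pseudogene copies, so their counts are uncertain.

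Genes of the mitochondrial respiratory chain and the endoplasmic reticulum fell in part. For the respiratory chain the list median was near that of the 2320 genes averaging 5 RPKM or more, -0.39. With median-of-ratios scaling both medians were -0.26. A fall particular to the respiratory chain was therefore not shown. Of 52 nuclear genes of oxidative phosphorylation, all tested, 23 fell and 0 rose (1 rose with median-of-ratios scaling, and 15 fell without HBEGF replicate 1), with a median log2 change of -0.37. Atp5b, a subunit of the ATP synthase, measured 468 and 517 RPKM with HBEGF and 210 and 203 RPKM without it (log2 change -1.25 ± 0.13, adjusted p = 2.61e-06), and Atp5g3 measured 98.3 and 97.5 RPKM against 40.1 and 39.1 RPKM. Of 22 endoplasmic reticulum chaperones and stress genes, 20 were tested and 11 fell, with a median log2 change of -0.58. Hspa5, the chaperone BiP, fell from 121 and 150 RPKM to 50.5 and 39.8 RPKM, and Hsp90b1 from 51.6 and 69.6 RPKM to 26.9 and 24.7 RPKM. In each of these 4 genes both withdrawal libraries lay below both HBEGF libraries.

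**Figure D3:**
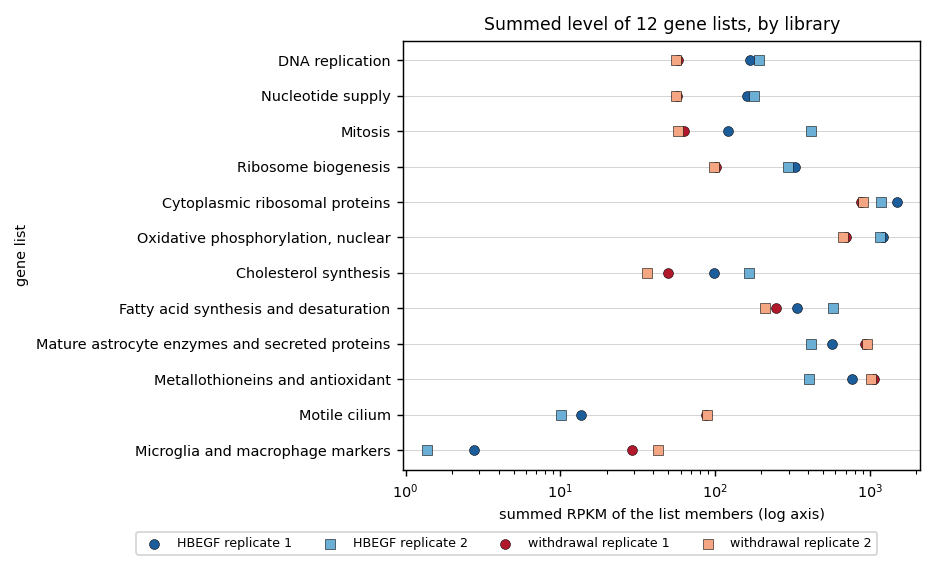
Summed RPKM of the members of 12 gene lists in each of the 4 libraries (log axis); each symbol is 1 library. Ribosome biogenesis and nucleotide synthesis sums were lower after withdrawal with close replicates, the mitosis sum was highest in HBEGF replicate 2, and the motile cilium and microglia sums were higher in both withdrawal libraries.

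Cholesterol synthesis fell along most of its length. Of 20 enzymes, all tested, 15 fell and 0 rose, with a median log2 change of -0.98, and leaving out 1 library gave 14 to 18. Their summed level was 98.2 and 165 RPKM with HBEGF and 49.8 and 36.5 RPKM after withdrawal. Cyp51, a demethylase late in the pathway, measured 10.9 and 17.5 RPKM with HBEGF and 3.43 and 1.95 RPKM without it (log2 change -2.03 ± 0.24, adjusted p = 7.66e-06). Hmgcs1, a synthase early in the pathway, measured 20.8 and 40.3 RPKM against 11.1 and 7.24 RPKM (log2 change -1.59 ± 0.23, adjusted p = 4.33e-05). Both groups were apart for these enzymes, with HBEGF replicate 2 the highest library. Insig1, a sterol sensor of the endoplasmic reticulum, fell from 16.6 and 34.0 RPKM to 6.98 and 3.92 RPKM. Srebf2, the transcription factor of this pathway, fell less, from 4.07 and 3.94 RPKM to 2.95 and 2.41 RPKM (log2 change -0.45 ± 0.09, adjusted p = 0.000902).

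The sterol element, searched as TCACNCCAC on both strands, stood in 1 of the 14 cholesterol and sterol-sensing genes that fell and had a promoter (7.14%), against 1.44% of 27025 genes. That gene was Hmgcs1, and its window upstream of the start, chr13:119690178-119690258 on the + strand, is shown with the match in capitals.
Hmgcs1: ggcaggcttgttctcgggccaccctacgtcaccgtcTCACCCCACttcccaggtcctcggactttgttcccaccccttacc
The match begins 137 bases before the start. An ETS element searched as CCGGAAGT stood in 0 of 12 promoters of the Sprouty, dual specificity phosphatase and ERK output genes that fell, against 4.31% of the 27025 genes and 11% of the 6007 tested protein-coding genes. The X-box, the element of the RFX factors of ciliary genes, stood in 0 of 10 promoters of the motile cilium genes that rose, against 0.529% of the 27025 genes. These letters are absent from these windows only, and nothing about the factors follows from it.

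Fatty acid synthesis fell in part. Of 22 genes, 15 were tested and 10 fell, with a median log2 change of -0.54, and 5 fell without HBEGF replicate 2 and 6 without withdrawal replicate 2. Fasn, fatty acid synthase, measured 33.2 and 68.2 RPKM with HBEGF and 12.8 and 11.3 RPKM after withdrawal (log2 change -1.90 ± 0.37, adjusted p = 0.000654), and Scd1, a desaturase, 23.8 and 64.6 RPKM against 11.3 and 7.57 RPKM. Of 16 lipid carriers, 11 were tested, 4 rose and 2 fell (1 without withdrawal replicate 2). Fabp7, the brain fatty acid binding protein of radial glia and immature astrocytes (chr10:57784881-57788450, GRCm38), measured 1247 and 1517 RPKM against 139 and 164 RPKM, a log2 change of -3.18 ± 0.17 (adjusted p = 2.73e-09). Apoe, the main apolipoprotein of astrocytes, was higher, at 140 and 86.4 RPKM with HBEGF and 357 and 425 RPKM after withdrawal (log2 change 1.82 ± 0.36, adjusted p = 0.000864), as was Clu, clusterin, at 18.1 and 8.69 RPKM against 61.3 and 58.4 RPKM. The groups did not overlap in any of the 5 genes.

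The cells carried astrocyte markers in every library. All 12 astrocyte identity genes had reads in each, with summed levels of 157 and 149 RPKM with HBEGF and 337 and 355 RPKM after withdrawal, and of 11 tested 6 rose and 2 fell, of which 1 or 0 fell without any 1 library and 1 with median-of-ratios scaling. Gfap, the intermediate filament of mature and reactive astrocytes, measured 5.80 and 3.23 RPKM against 63.5 and 60.2 RPKM (log2 change 3.55 ± 0.46, adjusted p = 1.79e-05), in a span that overlaps Gm26668. Sox9, an astrocyte transcription factor, measured 51.0 and 41.2 RPKM against 103 and 111 RPKM, and Aldoc, a glycolytic isoenzyme of astrocytes, 26 and 31.2 RPKM against 63.7 and 78.4 RPKM. These 3 genes were higher in both withdrawal libraries. The other identity genes that rose, Slc1a2, Gja1 and Atp1b2, each lost their call without at least 1 library. Hepacam, the antigen used for purification, was at 12.4 and 10.7 RPKM against 12.7 and 12.2 RPKM (adjusted p = 0.723). Aldh1l1 went the other way, from 1.05 and 1.28 RPKM to 0.555 and 0.377 RPKM (adjusted p = 0.0159, and 0.112 and 0.114 without HBEGF replicate 2 and withdrawal replicate 2). Aqp4, the water channel of astrocyte endfeet, measured 4.85 and 7.68 RPKM against 10.7 and 12.2 RPKM (adjusted p = 0.0691, and 0.039 with median-of-ratios scaling).

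Filament, channel and transporter genes of astrocytes did not share a direction. Nes, nestin, a filament of progenitors, measured 129 and 124 RPKM with HBEGF and 44.0 and 31.6 RPKM after withdrawal (log2 change -1.74 ± 0.27, adjusted p = 0.000108), while Vim, vimentin, was at 223 and 173 RPKM against 220 and 188 RPKM (adjusted p = 0.874). Mlc1, a membrane protein of endfeet, rose from 7.46 and 7.49 RPKM to 13.6 and 13.7 RPKM, and the bicarbonate transporter Slc4a4 fell from 2.39 and 2.12 RPKM to 0.436 and 0.413 RPKM. Of 17 genes of glutamate and GABA handling, 13 were tested, 3 rose and 5 fell, but 3 fell with median-of-ratios scaling and 2 or 3 without any 1 library, and 1 rose without HBEGF replicate 1. The glutamate transporters gave weaker calls in opposite directions. Slc1a2 measured 1.92 and 2.18 RPKM against 3.65 and 4.78 RPKM (adjusted p = 0.0165, and 0.0853, 0.0501 and 0.135 without HBEGF replicates 1 and 2 and withdrawal replicate 2). Slc1a3 measured 17.5 and 16.6 RPKM against 11.1 and 12.4 RPKM (adjusted p = 0.029, and 0.0566 to 0.143 without any 1 library, and 0.0925 with median-of-ratios scaling). Of 32 enzymes and secreted proteins of mature astrocytes, 26 were tested, 11 rose and 3 fell, with a median log2 change of 0.58 (6 rose without HBEGF replicate 2 and 6 without withdrawal replicate 2, and 5 fell without HBEGF replicate 1). Ntsr2, a neurotensin receptor of astrocytes, rose from 0.751 and 0.837 RPKM to 5.81 and 6.59 RPKM.

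Transcription factors of the glial lineage changed sharply in both directions. Of 19 gliogenic factors, 18 were tested, 6 rose and 5 fell. Olig1 (chr16:91269772-91271933, GRCm38) measured 259 and 244 RPKM with HBEGF and 44.4 and 54.2 RPKM after withdrawal (log2 change -2.33 ± 0.18, adjusted p = 8.97e-08), and Olig2 144 and 136 RPKM against 33.0 and 33.9 RPKM (log2 change -2.04 ± 0.17, adjusted p = 2.01e-07). These basic helix-loop-helix factors, which specify oligodendrocyte precursors, were low in both withdrawal libraries. Zbtb20, a factor that promotes astrocyte generation, rose from 1.69 and 1.49 RPKM to 3.98 and 4.67 RPKM, and Pax6, of radial glia, from 1.49 and 1.43 RPKM to 4.53 and 4.48 RPKM. The inhibitors of helix-loop-helix factors diverged, since Id3 fell from 18.6 and 19 RPKM to 4.54 and 6.07 RPKM and Id4 rose from 5.36 and 4.37 RPKM to 20.2 and 25.4 RPKM. Hes1, a Notch target, fell from 3.39 and 3.84 RPKM to 0.807 and 1.46 RPKM.

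Genes of the motile cilium, the beating organelle of ependymal cells, were higher after withdrawal. All 66 members present in the table summed to 13.6 and 10.1 RPKM with HBEGF and 88.0 and 89.0 RPKM after withdrawal, and both withdrawal libraries were several fold above both HBEGF libraries. Only 14 of 68 listed members passed the RPKM filter and all 14 rose, but a gene that passes only through the group where it is high has to differ. The filter on recovered reads has the same limit, since many members reach 20 reads only after withdrawal: 59 were fitted, 45 of them below the RPKM filter, and 57 rose, with a median log2 change of 3.33 (3.23 without the 7 genes that had at most 3 reads in each HBEGF library). Of the 19 members with at least 20 reads in both HBEGF libraries, counted after the values were seen, 18 rose, with a median log2 change of 2.60. Foxj1, the master transcription factor of motile ciliogenesis (chr11:116330704-116335399, GRCm38), measured 5.78 and 3.97 RPKM with HBEGF and 29.4 and 35.2 RPKM after withdrawal (log2 change 2.52 ± 0.24, adjusted p = 1.04e-06). Tppp3, a tubulin polymerisation protein, measured 0.606 and 0.406 RPKM against 11.6 and 11 RPKM (log2 change 3.04 ± 0.15, adjusted p = 8.87e-10). Axonemal dynein heavy chains, the motors of the cilium, moved from few reads to many: Dnah6 had 52 and 15 reads with HBEGF and 549 and 498 after withdrawal, and Dnah9 had 69 and 20 against 554 and 401. Hydin, of the central pair, had 24 and 13 reads against 297 and 169. Rfx3, a transcription factor of ciliary genes, moved less, at 911 and 905 reads against 1772 and 1498. The 2 fitted members that did not pass were Myb, at 91 and 112 reads against 138 and 122 (adjusted p = 0.0509), and Ribc1, at 15 and 11 reads against 31 and 9.

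**Figure D4:**
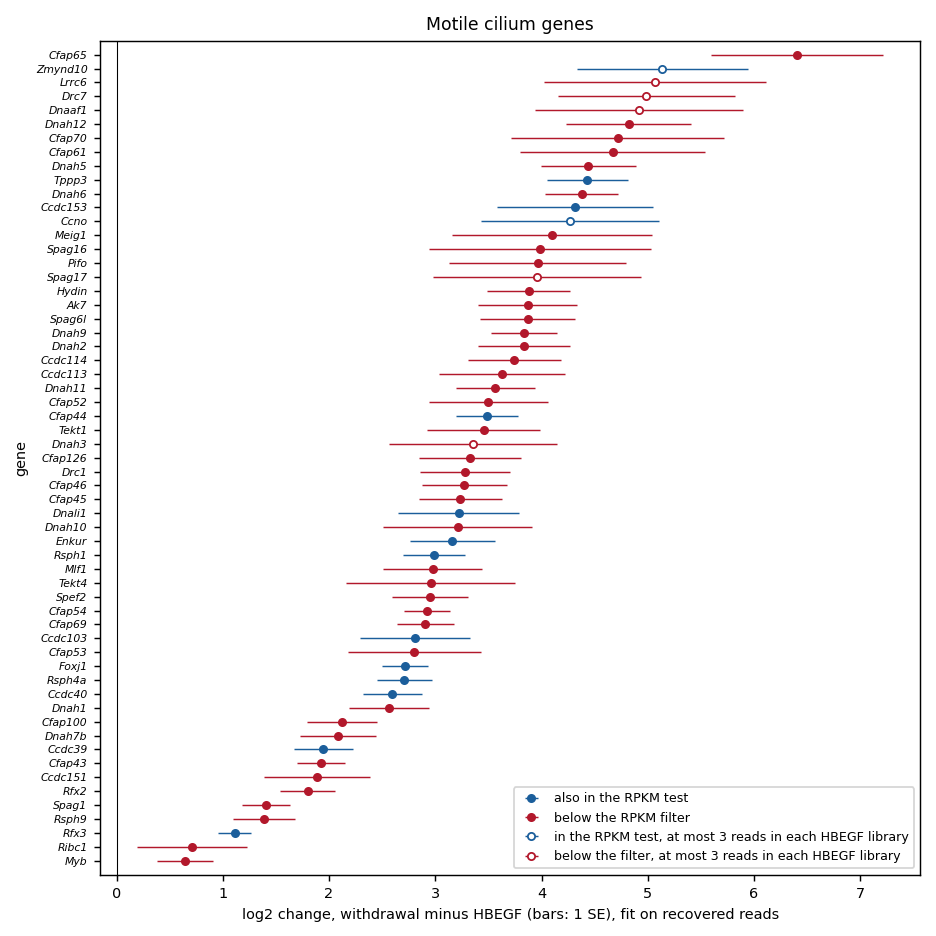
Log2 change (withdrawal minus HBEGF, fitted on recovered reads) of 59 motile cilium genes, with bars of 1 SE; open symbols mark genes with at most 3 reads in each HBEGF library. All but 2 of the genes passed the test as higher, and the median change was 3.33.

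Markers of other cell types were counted beside these changes. Ependymal and choroid markers, 14 genes, summed to 6.57 and 4.96 RPKM with HBEGF and 36.6 and 40.4 RPKM after withdrawal, while Ttr, the defining choroid gene, was at 0 in all 4 libraries. Of the 40 primary cilium genes, 19 were tested, 7 rose and 3 fell, and on recovered reads 39 were fitted, 20 rose and 5 fell, with a median log2 change of 0.51. The part of ependymal cells in the cilium values was not tested. Microglia and macrophage markers, 30 genes, summed to 2.75 and 1.37 RPKM with HBEGF and 29.2 and 43.1 RPKM after withdrawal. With HBEGF 16 of the 30 had no read, and Tmem119, Siglech and Pf4 had none in any library, but C1qa had 0 and 0 reads against 12 and 9, Laptm5 0 and 0 against 64 and 37, and Trem2 0 and 1 against 16 and 18. Lyz2, a lysozyme of macrophages and microglia, had 0 and 5 reads against 338 and 590. C1qa, Laptm5, Trem2 and Lyz2 were each higher in both withdrawal libraries. The part of such cells in the other values was not tested.

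The markers of other glia, neurons and vessels moved by different amounts. Oligodendrocyte markers, 15 genes, summed to 21.6 and 11 RPKM with HBEGF and 33.5 and 32.8 RPKM after withdrawal. Of these, 6 were tested and 4 rose, and on recovered reads 12 were fitted, 7 rose and 1 fell. Mobp measured 0.0445 and 0.0206 RPKM against 1.77 and 3.49 RPKM (log2 change 1.77 ± 0.18, limma adjusted p = 1.3e-06). Markers of oligodendrocyte precursors summed to 424 and 395 RPKM against 96.8 and 103 RPKM, a sum made mostly of Olig1 and Olig2. Neuron markers, 30 genes, summed to 26.5 and 14.2 RPKM against 44.0 and 49.8 RPKM, and of 13 tested 6 rose (3 without HBEGF replicate 2, 3 without withdrawal replicate 2). Insm1 and Eomes, transcription factors of neuronal progenitors, rose, from 3.57 and 2.22 RPKM to 17.4 and 20.1 RPKM and from 0.0324 and 0 RPKM to 1.47 and 1.58 RPKM. Among these 4 libraries Mobp and Eomes reached the 1 RPKM of the filter only after withdrawal. A gene that passes only through the group where it is high has to differ. Pericyte and fibroblast markers, 17 genes, summed to 4.79 and 3.8 RPKM against 17.4 and 19.4 RPKM. Endothelial markers, 13 genes, summed to 0.093 and 0.0522 RPKM with HBEGF and 0.526 and 0.353 RPKM after withdrawal. Only 2 could be fitted on reads, and both rose. Kdr, a VEGF receptor, had 3 and 4 reads against 35 and 21. Among these 4 libraries Kdr reached the 20 reads of the filter only after withdrawal, so its rise is not a result about endothelial markers. Cldn5, Cdh5 and Emcn were at 0 in all 4 libraries, and 7 of 8 erythrocyte markers were at 0 in all 4. The part of these cells in the changes of astrocyte genes was not tested.

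Withdrawal of the ligand was set beside inhibition of its receptor, as the difference between both changes in the fit. The difference passed for 253 of 13850 genes (1.83%): the withdrawal change was higher for 77 and lower for 176. Of the 253, 49 had both changes called the same way and 43 had them called in opposite ways, while 77 were called on withdrawal only and 84 with the inhibitor only. Many genes named above gave no difference past the threshold. Gfap rose from 3.48 ± 0.324 to 66.0 ± 4.78 RPKM (SD, n = 3 libraries each) with the inhibitor, and its difference was -0.36 ± 0.60 (adjusted p = 0.834). Olig1 fell from 248 ± 29.4 to 60.6 ± 4.90 RPKM (SD, n = 3), with a difference of -0.32 ± 0.23 (adjusted p = 0.531). A p above the threshold does not show that the changes were alike, and the experiments differ in day of addition and in their control.

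The genes that did differ included Ccnd1, 5 of 13 tested neuron markers and 3 of 11 tested lipid carriers. Ccnd1 was the only 1 of 13 tested G1 genes to pass. Of 48 mitosis and 35 DNA replication genes tested, 0 passed for the difference. Over all genes tested 1.83% passed, so a count of 0 in lists of this size does not show that their changes were alike. Ccnd1 fell from 71.6 ± 16.5 to 1.85 ± 0.513 RPKM (SD, n = 3) with the inhibitor, further than to the 9.44 and 8.35 RPKM after withdrawal, and the difference was 2.17 ± 0.42 (adjusted p = 0.0125, and 0.0629 and 0.052 without replicate 1 of HBEGF and of withdrawal). Fabp7 was lower after withdrawal than with the inhibitor, where it measured 359 ± 8.49 RPKM (SD, n = 3) against 1094 ± 98.0 RPKM with DMSO, and the difference was -1.57 ± 0.22 (adjusted p = 0.0014). Dlx1 and Dlx2, homeobox factors of interneurons, rose with the inhibitor to 19.4 ± 1.15 and 13.6 ± 1.18 RPKM (SD, n = 3), and measured 4.79 and 3.76 RPKM and 4.48 and 3.09 RPKM in the withdrawal libraries. The differences were -3.72 ± 0.80 and -2.37 ± 0.58 (adjusted p = 0.0215 and 0.0437). Both were lost without HBEGF replicate 1 (0.116 and 0.195) and without withdrawal replicate 1 (0.0544 and 0.0726) or 2 (0.0629 and 0.117). Their call on withdrawal itself was absent for Dlx1, at 5.56 and 1.45 RPKM with HBEGF, and was lost for Dlx2 without HBEGF replicate 2 or withdrawal replicate 1 (adjusted p = 0.0251, and 0.42 and 0.136 without them). Tppp3 rose more on withdrawal than with the inhibitor, where it measured 5.21 ± 0.903 RPKM (SD, n = 3), with a difference of 1.55 ± 0.19 (adjusted p = 0.000689). Mobp, Mbp and Mag, myelin genes, rose on withdrawal and had differences of 1.78, 1.15 and 1.02. Among the HBEGF and withdrawal libraries Mobp reached the 1 RPKM of the filter only after withdrawal, so no conclusion is drawn from its difference. The number of genes past the threshold was 108 without HBEGF replicate 1 and 160 without withdrawal replicate 1.

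**Figure D5:**
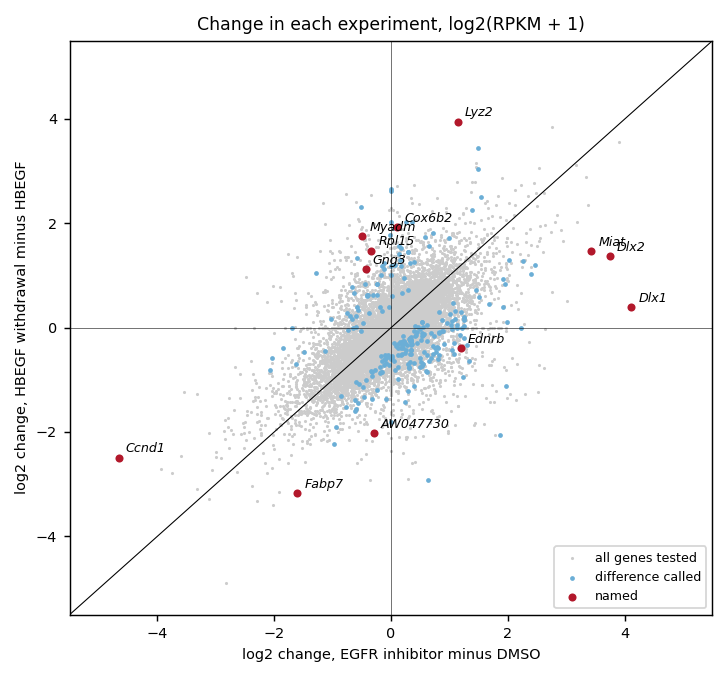
Log2 change on HBEGF withdrawal against the log2 change with the EGFR inhibitor for all genes tested, with 12 genes named; each point is a gene, and the line marks equal changes. Ccnd1 and Lyz2 lie to the side of a higher withdrawal change, and Dlx1, Dlx2 and Fabp7 to the side of a lower one.

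The replicates of a group disagreed for some transcripts, most of all for mitosis genes in the HBEGF group. Aspm measured 1.45 and 10.9 RPKM in HBEGF replicates 1 and 2, Cenpf 2.39 and 15.5 RPKM and Cdca3 3.31 and 18.9 RPKM. In the withdrawal group the disagreements were scattered, with AA413626 at 0.620 and 9.67 RPKM, Fam122a at 19.5 and 5.58 RPKM and Hist2h4 at 10.6 and 2.20 RPKM. Apod, Nid1 and Postn, chosen after their values were seen, were highest by far in withdrawal replicate 1. Apod had 23 and 0 reads with HBEGF and 1551 and 55 after withdrawal. Nid1 had 212 and 136 against 830 and 54, and Postn had 6 and 0 against 660 and 12. The list of 17 pericyte and fibroblast markers did not share this, with sums of 17.4 and 19.4 RPKM in withdrawal replicates 1 and 2.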

How the data were processed

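RNA was measured by sequencing in 25 libraries of 9 groups, of which the 2 HBEGF and 2 HBEGF withdrawal libraries were compared. Total RNA came from the miRNeasy Mini Kit, cDNA from the Ovation system V2 and libraries from the NEBNext Ultra kit with 10 PCR cycles, per the labels' protocols. The authors deposited RPKM values for 54429 entries. The submitters' processing notes name GRCm38, STAR, HTSeq, edgeR and limma, without versions or roles. The library size is the total of counted reads: 7780666 and 6104671 with HBEGF, 6552450 and 5039375 after withdrawal, and 4014319 to 9691825 over all libraries. These reads were recovered from the RPKM values with the whole gene span as length, and 99.0 to 99.3% of low values (up to 20 reads) came out whole within 0.1.

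Of the entries, 53713 (98.7%) had a symbol in GENCODE M21. Genes with at least 1 RPKM in at least 2 libraries (13850) were fitted with limma as log2(RPKM + 1), with 9 group means, 16 residual degrees of freedom, and empirical Bayes with trend and robust options. All p-values come from limma, with Benjamini-Hochberg adjustment over all genes tested and calls below 0.05. For genes below the RPKM filter, voom and limma were run on the recovered reads of 15239 genes with at least 20 reads in at least 2 libraries, after the data were seen. Either filter can admit a gene through the group where it is high. Among these 4 libraries Bgn, Per3, Ntsr2, Emp1, Lyz2 and Tppp3 also reached 1 RPKM only after withdrawal. The comparison was tested on simulated data (13850 genes, 200 changed): 69% of 2-fold and 88% of 4-fold changes were recovered, and 4.85% of calls were false. There all libraries shared the same mean and spread per gene, and only genes of higher level were changed. In the data 4511 genes were called, so these rates need not hold for the real calls. No library pair was identical (highest correlation 0.947). limma 3.58.1 ran in R 4.3.3. Tables and plots were made in Python 3.11.15 with numpy 2.4.6, pandas 2.3.3 and matplotlib 3.10.9.

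The 59 gene lists and the members were chosen with earlier results of these data known. Genes were named by rule: the 12 largest log2 changes in each direction (mean of at least 5 RPKM, groups without overlap), the 8 largest differences in RPKM, up to 6 per list by p, a preset list, up to 6 per direction for the difference from the EGFR inhibitor, and up to 6 per group for the difference between replicates. Predicted, clone, pseudogene and small RNA symbols were left out. Not all of these are printed, and the results of some are not reported here. Genes given by recovered reads, and marker genes given by reads, were picked from their lists after the values were seen. Alternatives were 3 scalings (median-of-ratios, quantile, mitochondria-free), a filter of 5 RPKM or none, a pseudocount of 0.1, array weights, plain empirical Bayes, a replicate block, voom, log2(CPM + 1), the HBEGF libraries alone and leaving out each library. The HBEGF and EGFR libraries alone, and voom with the read filter, were added later.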

Additional observations from a re-analysis of the deposited data

Results flagged for a closer look

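The change on withdrawal differed from the change with the EGFR inhibitor, by a test of the difference itself in the limma fit, for 253 genes of 13850. The 12 genes picked by rule from both sides are given here as the withdrawal change minus the inhibitor change in log2 units. Higher were Lyz2 (2.81), Myadm (2.24), Ccnd1 (2.17), Cox6b2 (1.82), Rpl15 (1.81) and Gng3 (1.56). Lower were Dlx1 (-3.72), Dlx2 (-2.37), Miat (-1.96), AW047730 (-1.73), Ednrb (-1.59) and Fabp7 (-1.57). Lyz2 had almost no reads with HBEGF, and among the HBEGF and withdrawal libraries it reached the 1 RPKM of the filter only after withdrawal. A gene that passes only through the group where it is high has to differ, so no conclusion is drawn from its difference. Without at least 1 of the 4 libraries the difference missed the threshold for Dlx2 and Dlx1 (adjusted p up to 0.195 and 0.116, without HBEGF replicate 1), Cox6b2 and Ccnd1 (up to 0.0756 without withdrawal replicate 1 and 0.0629 without HBEGF replicate 1), Gng3 (0.0867 without HBEGF replicate 2), Ednrb (0.0532 without HBEGF replicate 1) and Rpl15 (0.0514 without withdrawal replicate 2). Myadm, whose span overlaps another annotated gene, rose from 1.49 and 3.40 RPKM to 9.53 and 10.8 RPKM on withdrawal, and with the inhibitor measured 3.50 ± 0.484 RPKM against 5.33 ± 0.250 RPKM (SD, n = 3 libraries each). Miat, a long noncoding RNA of neurons, rose from 2.72 and 2.74 RPKM to 7.87 and 10.9 RPKM, and with the inhibitor reached 30 ± 0.834 RPKM against 1.89 ± 0.262 RPKM (SD, n = 3). Ednrb, the endothelin receptor of astrocytes, measured 9.64 and 8.90 RPKM with HBEGF and 6.77 and 6.84 RPKM without it (adjusted p = 0.22), while the inhibitor raised it from 10.1 ± 0.941 to 24.3 ± 1.90 RPKM (SD, n = 3).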

How the results depend on the processing

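Against 1390 genes that rose and 3121 that fell, the counts were 3140 without a filter on low values (rose), 432 and 1450 with a filter of 5 RPKM, 2722 with voom at 20 reads (rose), and 0 in each direction with the 4 libraries alone. Leaving out each library gave 786 to 1329 that rose and 2355 to 2543 that fell. The difference from the EGFR inhibitor change passed for 253 genes, and for 763 without a filter, 100 with a filter of 5 RPKM, 437 on log2(CPM + 1), 383 with voom, 724 with voom at 20 reads, 45 with the HBEGF and EGFR libraries alone, and 108 to 220 without 1 library. With the replicate number as a replicate block, 1225 genes rose, 2815 fell and 63 passed for the difference. Same-numbered libraries deviated together with r = 0.032 over 13850 genes and 0.103 over 2320 genes with at least 5 RPKM, and with 2 pairs the libraries share only a number. The other settings kept each count within 1.5 times. The share of called genes that rose was 30.8% as deposited, 41.7% with median-of-ratios scaling, 42.6% with quantile normalization, 47.6% without mitochondrial genes, 48.4% without a filter and 41.1% with voom at 20 reads. For settings with fewer genes or libraries the count changes by construction, and for the rest the cause was not tested. Of the 110 called genes the text names, 100 to 106 were called without any 1 library, and 108 with the replicate block, which lost Mki67 (adjusted p = 0.0674) and Spry2 (0.0503). Of 498 called genes of the lists or named, 306 were called without each of the 4 libraries and 192 were not called without at least 1. All 12 genes named for the difference kept their direction. Fabp7, Myadm, Miat and AW047730 passed in 17 of 17 settings and Dlx2 in 6. Depth limits what can be said of genes with few reads, where 3 reads is the floor, and PCR copies are not separate molecules, so reads overstate precision.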

Other observations

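Receptors and secreted factors outside the ErbB pathway moved in both directions. Of 29 G protein-coupled receptors, 16 were tested, 8 rose and 2 fell (5 rose without HBEGF replicate 1, HBEGF replicate 2 or withdrawal replicate 1), and on recovered reads 9 rose and 4 fell of 25. Adrb1, the beta-1 adrenergic receptor, measured 15.1 and 15.1 RPKM with HBEGF and 3.44 and 2.47 RPKM after withdrawal (log2 change -2.04 ± 0.19, limma adjusted p = 7.74e-07), and F2r, a thrombin receptor, 20.3 and 21.9 RPKM against 7.72 and 8 RPKM (log2 change -1.32 ± 0.09, adjusted p = 2.08e-08). S1pr3, a receptor for sphingosine-1-phosphate, was instead high in the withdrawal libraries, at 3.26 and 1.14 RPKM against 17 and 15.7 RPKM, as was the chemokine receptor Cxcr4, at 1.60 and 1.80 RPKM against 5.68 and 8.45 RPKM. The metabotropic glutamate receptor Grm5, below the RPKM filter, had 789 and 997 reads with HBEGF and 66 and 75 after withdrawal (log2 change -3.40 on recovered reads, adjusted p = 2.3e-07). Of 30 growth factor receptors, 13 were tested, 6 rose and 1 fell (0 fell without withdrawal replicate 1), and on recovered reads 11 rose and 4 fell of 26, with Ntrk2, the BDNF receptor, at 1.65 and 1.5 RPKM against 4.31 and 4.99 RPKM. The IGF binding proteins diverged. Igfbp3 measured 88.5 and 53.8 RPKM with HBEGF and 10 and 9.43 RPKM after withdrawal (log2 change -2.71 ± 0.34, adjusted p = 1.31e-05), and Igfbp5 9.94 and 5.09 RPKM against 59 and 76.8 RPKM (log2 change 3.06 ± 0.20, adjusted p = 1.74e-08). The matrix proteoglycan Ncan fell from 60.8 and 85.2 RPKM to 22.6 and 24.4 RPKM, and Bgn, biglycan, rose from 0.229 and 0.146 RPKM to 3.38 and 2.51 RPKM.

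Energy metabolism, the clock and stress genes gave mixed lists. Of 30 genes of glycolysis and lactate, 26 were tested, 11 rose and 7 fell. Ldha, lactate dehydrogenase A, measured 25.9 and 30.1 RPKM with HBEGF and 7.77 and 6.67 RPKM after withdrawal (log2 change -1.82 ± 0.18, limma adjusted p = 1.3e-06). Pdk4, a pyruvate dehydrogenase kinase, measured 1.12 and 1.07 RPKM against 5.62 and 6.09 RPKM (log2 change 1.71 ± 0.14, limma adjusted p = 2.26e-07). Pkm was low and Txnip, an inhibitor of glucose uptake, was high in both withdrawal libraries, at 13.9 and 13.4 RPKM against 5.36 and 6.17 RPKM and at 3.24 and 2.96 RPKM against 25.6 and 15.2 RPKM. Of 19 clock genes, 13 were tested, 6 rose and 2 fell (0 fell without HBEGF replicate 2). Per3 rose from 0.476 and 0.403 RPKM to 1.46 and 1.84 RPKM. Of 24 metallothionein and antioxidant genes, 22 were tested and 7 rose, 12 without HBEGF replicate 1 and 3 without HBEGF replicate 2, so the count rested on those libraries. Of 23 P53 targets, 17 were tested, 3 rose and 5 fell, but 2 fell with median-of-ratios scaling, without HBEGF replicate 1 or without withdrawal replicate 2, and on recovered reads 6 rose and 5 fell of 23. Trp53 itself fell from 11.5 and 9.95 RPKM to 6.51 and 6.83 RPKM (adjusted p = 0.00441). Gadd45b, a stress-induced gene, rose from 1.21 and 0.461 RPKM to 6.60 and 3.92 RPKM. Of 17 genes of MHC class I and antigen processing, 9 were tested, 3 rose and 2 fell, and H2-D1 rose from 3.69 and 2.40 RPKM to 8.40 and 8.54 RPKM. Sfrp1, a secreted Wnt antagonist, rose from 1.22 and 1.30 RPKM to 4.99 and 5.44 RPKM (log2 change 1.46 ± 0.08, adjusted p = 4.4e-09).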
